A study of Mus musculus with 7 samples.

Results

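The genes described here are those of fatty acid oxidation and ketone body formation in the liver, with the fasting hormone gene Fgf21 and the regulators around it. They were taken by gene symbol from the platform annotation as a fixed list of 34 genes. Of these, 33 had at least 1 probe (61 probes of the 45281 on the array), and Ucp2 was not analysed here. A total of 30 members passed the filter on dim probes and were tested among 13326 genes or unnamed probes. The members were divided by role into 5 secreted signals and regulators and 25 enzymes and carriers.

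Fatty acids released from fat stores reach the liver, are bound to carnitine to enter mitochondria, and are shortened there cycle by cycle to acetyl-CoA, much of which becomes ketone bodies in fasting. Very long and branched chains are first shortened in peroxisomes. The nuclear receptor PPAR-alpha, bound by fatty acids, switches on most of these enzymes together with Fgf21, Pdk4 and Angptl4. After removal of liver mass, the remaining hepatocytes take up fat from the blood.

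RNA of whole liver was measured on single-colour Illumina bead arrays, 1 per sample, in mice of the C57BL/6 strain 12 h after partial hepatectomy (PHx, surgical removal of part of the liver). There were 4 samples of LTBR KO mice, which lack the lymphotoxin beta receptor (KO below), and 3 samples of wild-type mice (WT). Both groups had undergone PHx and no unoperated liver was part of the comparison, so differences from before and after surgery cannot be told apart. Neither the age of the mice, their sex, nor how long they had been without food is given in the sources used here. The comparison asked how loss of this receptor alters gene expression in the liver as it regrows.

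The targeted gene Ltbr had a log2 intensity of 5.94 ± 0.27 (SD, n = 4) in KO and 6.98 ± 0.33 (SD, n = 3) in WT, with all KO samples below all WT samples (limma adjusted p = 0.088). Each array had 18677 probes above an intensity floor of 93.4, which is 4.98 on the log2 scale used below. Samples of one group correlated at 0.967 to 0.987 and samples of different groups at 0.960 to 0.977, and the samples that correlated least with their own group were KO replicate 3 and WT replicate 3. Of the 14 hepatocyte markers tested, none passed, 4 had a higher and 10 a lower KO mean. Their summed intensity ran from 178095 to 183237 in KO and from 175199 to 188111 in WT. Most of that sum came from very bright markers such as Apoa1 (14.66 in KO and 14.71 in WT). Markers whose probes were dimmer on these arrays, such as Alb (1 probe, 6.73 in KO and 7.13 in WT), added little to it. A dim probe need not mean a scarce transcript. Both genes, Apoa1 and Alb, were named after their values were seen. All values below are log2 of background-corrected intensity, all differences are KO minus WT, and adjusted p-values are from limma over all 13326 features.

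No member passed at an adjusted p under 0.05 (0 of 30), where 0.0675% of all features tested did (0.00750% higher and 0.0600% lower in KO). Fgf21 and Pdk4 had the largest positive differences, and most enzymes had small negative ones. At an unadjusted p under 0.05 there were 5 members, 2 with a higher and 3 with a lower KO mean. That is 16.7% of those tested, near the background of 14.7% of all features (8.19% higher and 6.46% lower). The groups did not overlap for 3 members, Fgf21 above and Acot1 and Eci1 below, or 10% against 13.0% of all features (7.57% above and 5.45% below). The median difference was -0.16 over the 30 members and 0.03 over all features, and 21 of 30 members (70%) lay below 0 where 45.8% of all features did. This lean was not particular to the members. Below 0 were also 71.4% of the 14 hepatocyte markers tested and 73.3% of the 15 other mitochondrial acyl-CoA enzymes tested. For FGF21 receptors and upstream factors the share was 50%, and for Kupffer cell and macrophage markers 8.33%. The median standard error (SE) of a member's difference was 0.21, so differences of the size seen for most enzymes were not resolvable with this number of arrays.

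**Figure D1:**
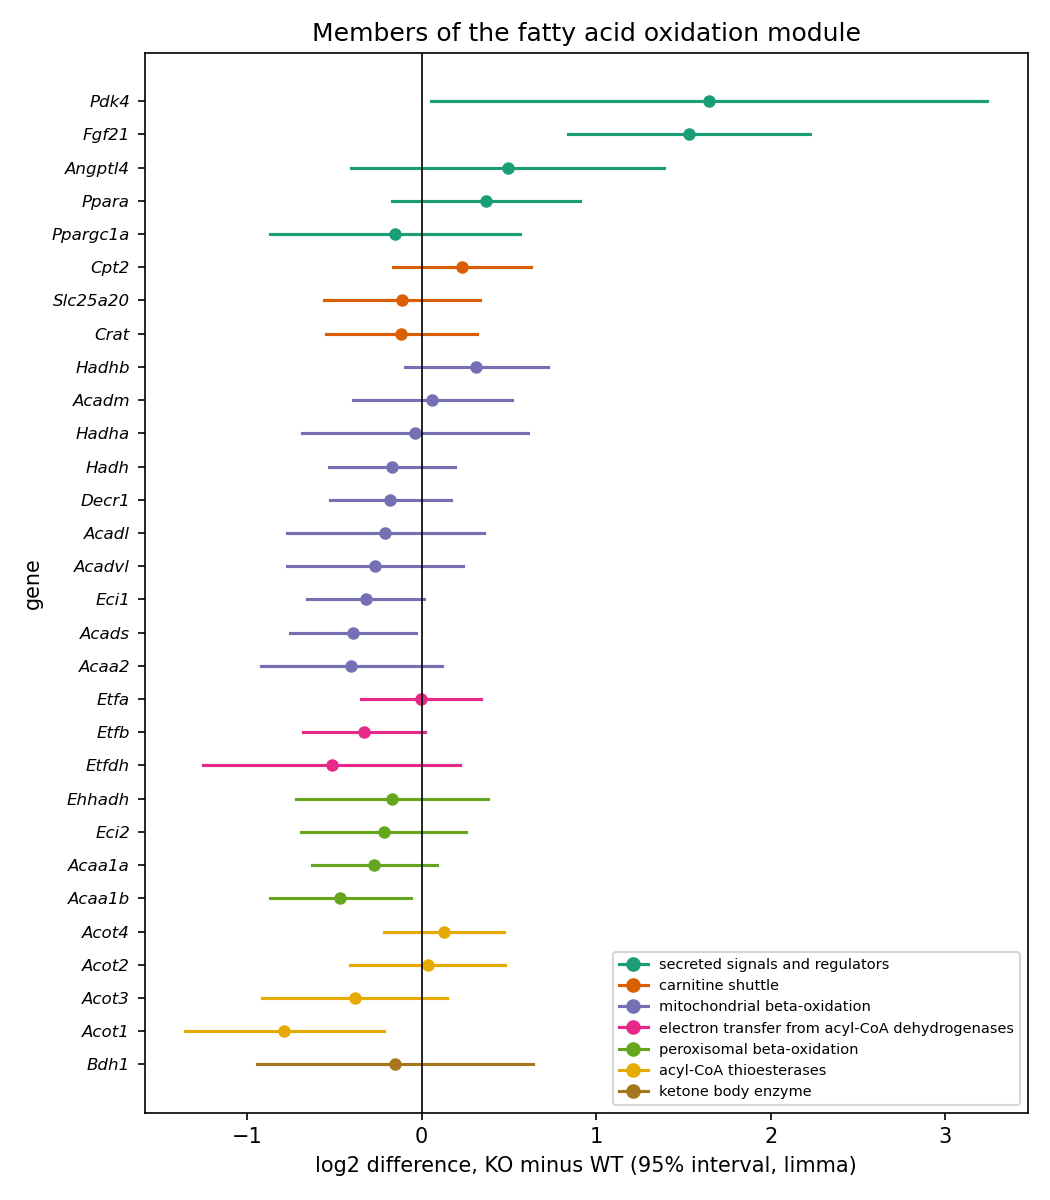
Log2 difference, KO minus WT, of the 30 members tested (dots) with 95% intervals from limma (lines), coloured by role and sorted within each role. Pdk4 (1.65) and Fgf21 (1.53) lie farthest to the right, Acot1 (-0.79) farthest to the left, and most enzyme intervals include 0.

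Fgf21 encodes a hormone that the liver secretes in fasting and under amino acid or endoplasmic reticulum stress, and that acts through FGF receptors with the co-receptor beta-Klotho. Its gene lies on chromosome 7 (chr7:45613890-45615490, GRCm38.p6, RefSeq). The stretch before its start is shown because it holds the sequence element through which the stress factor ATF4 can act. It is given 5′ to 3′ on the minus strand (chr7:45615491-45615740), with the only match to the ATF4 element TGATGNAA, here on the opposite strand, in capitals.
Fgf21, 250 bases before the start: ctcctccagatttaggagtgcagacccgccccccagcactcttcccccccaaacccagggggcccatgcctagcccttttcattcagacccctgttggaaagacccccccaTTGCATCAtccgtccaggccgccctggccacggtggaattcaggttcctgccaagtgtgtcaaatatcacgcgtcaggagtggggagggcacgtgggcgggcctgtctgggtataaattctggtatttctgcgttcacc

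The match begins 139 bases before the start. The 250-base windows of 29 of the 34 members were found in RefSeq's table, and 3.45% of all 32851 windows held a match to this element on either strand. Among the members with a window, Fgf21 alone had one. The element TGACGTCA was in no member's window and in 1.55% of all windows. A match is a description of letters, and its use in these livers was not tested.

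The deposited intensity of Fgf21 was 320.7, 181.6, 248.7 and 170.7 in KO replicates 1 to 4, against 100.4, 114.6 and 142.7 in WT replicates 1 to 3. On the corrected log2 scale the values were 8.02, 6.90, 7.55 and 6.77 in KO and 5.27, 5.72 and 6.34 in WT. All 4 KO samples thus lay above all 3 WT samples, and the lowest WT value was close to the floor of 4.98. The mean was 7.31 ± 0.58 (SD, n = 4) in KO and 5.78 ± 0.54 (SD, n = 3) in WT. The means differed by 1.53 (SE 0.32, 95% interval 0.84 to 2.22), or 2.89-fold, and the adjusted p of 0.088 missed the threshold. The result of Fgf21 was known when these genes were chosen, so its rank and p are a description. Fgf21 was the feature with rank 67 by p among the 13326 tested and has 1 probe on the platform. It passed with array weights (1.75, adjusted p = 0.015), a setting under which 921 features passed against 9 without weights. The largest weight (2.29) went to KO replicate 1, the sample with the highest Fgf21 value. The difference of Fgf21 was 0.919 where no background was corrected.

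Other cell types that the liver samples could hold were checked through their markers, of which those named here were chosen after their values were seen. Of the 9 adipocyte and mesothelial markers, 3 were tested, 1 above 0 and 2 below, and none passed. Their summed intensity ran from 611 to 1490 in KO and from 256 to 1580 in WT, most of it from Plin4, a lipid droplet coat gene. Plin4 had 10.48, 9.76, 9.11 and 9.73 in KO and 7.97, 7.43 and 10.56 in WT (1.12, adjusted p = 0.42). Its groups overlapped through WT replicate 3, and its difference had the same direction as that of Fgf21. Upk3b was above the floor on 6 arrays (-0.29) and Msln on 3 (-0.20), while Adipoq, Lep, Plin1 and Retn were above it on at most 2.

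Of the pancreatic acinar markers, Prss2, Cpa1, Ctrb1 and Cel were above it on 0 arrays, while Amy2a5 and Cela1 were above it on all 7. The 12 Kupffer cell and macrophage markers tested summed to an intensity of 2943 to 5085 in KO and 2074 to 2949 in WT, with 11 of 12 differences above 0 and none past the threshold. At an unadjusted p under 0.05 there were 4 of these 12 (33.3%), all with a higher KO mean. The share of all features was 14.7% in either direction and 8.19% with a higher KO mean. The 10 stellate cell and fibroblast markers summed to 4299.6 to 6014 in KO and 3240.0 to 4211 in WT, with 5 above 0 and 5 below. Most of that sum came from Dcn (11.63 in KO and 11.20 in WT). The median deviation of the 10 from each gene's mean overlapped between groups, at -0.10 to 0.06 in KO and -0.31 to 0.24 in WT. The part of these cells in the differences was not tested, and in whole liver fewer cells of a type cannot be told apart from less RNA per cell.

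Pdk4 encodes the kinase that switches off pyruvate dehydrogenase when fat is burned. Its log2 intensity was 11.88, 9.04, 9.67 and 9.32 in KO replicates 1 to 4, against 6.50, 9.02 and 9.47 in WT replicates 1 to 3. The groups overlapped, and the spread came from 1 high KO sample and 1 low WT sample, a range of 5.38 over the 7 arrays. The means differed by 1.65 (SE 0.73, 95% interval 0.05 to 3.24, adjusted p = 0.32). It was 0.73 without WT replicate 1 and 1.01 without KO replicate 1.

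Angptl4 encodes a secreted inhibitor of lipoprotein lipase, the enzyme that frees fatty acids from circulating fat. Its log2 intensity was 11.06, 10.58, 10.26 and 10.78 in KO and 9.03, 10.19 and 11.31 in WT. The KO samples lay within the span of the WT samples, whose SD was 1.14 (n = 3) against 0.34 in KO (SD, n = 4). The difference was 0.49 (SE 0.41, adjusted p = 0.63), and it was -0.08 without WT replicate 1.

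Ppara, the receptor gene itself, had a log2 intensity of 6.17, 5.90, 6.35 and 5.39 in KO and 5.15, 5.86 and 5.74 in WT. The groups overlapped, with a difference of 0.37 (SE 0.25, adjusted p = 0.54). Ppargc1a encodes the coactivator PGC-1alpha, which drives genes of mitochondria and of fasting. It stood at 6.25, 6.13, 7.15 and 6.94 in KO and 7.56, 6.21 and 6.56 in WT, with a difference of -0.15 (SE 0.33, adjusted p = 0.88) that became 0.24 without WT replicate 1. Its other probe was above the floor on 0 arrays. Fgf21, Pdk4, Angptl4 and Ppara all had their lowest value of the 7 arrays in WT replicate 1, and Ppargc1a had its highest there. The 4 neutrophil markers tested, of 10 listed, also stood apart in that sample, with a summed intensity of 1355 against 319 and 303 in WT replicates 2 and 3 and 414 to 967 in KO. S100a8, a calgranulin gene of neutrophils named after its values were seen, was 7.46, 7.44, 7.98 and 8.83 in KO and 9.34, 7.03 and 6.78 in WT. None of the 4 passed, and their part in the differences was not tested. Without that sample the difference of Fgf21 was 1.28 (adjusted p = 0.17).

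**Figure D2:**
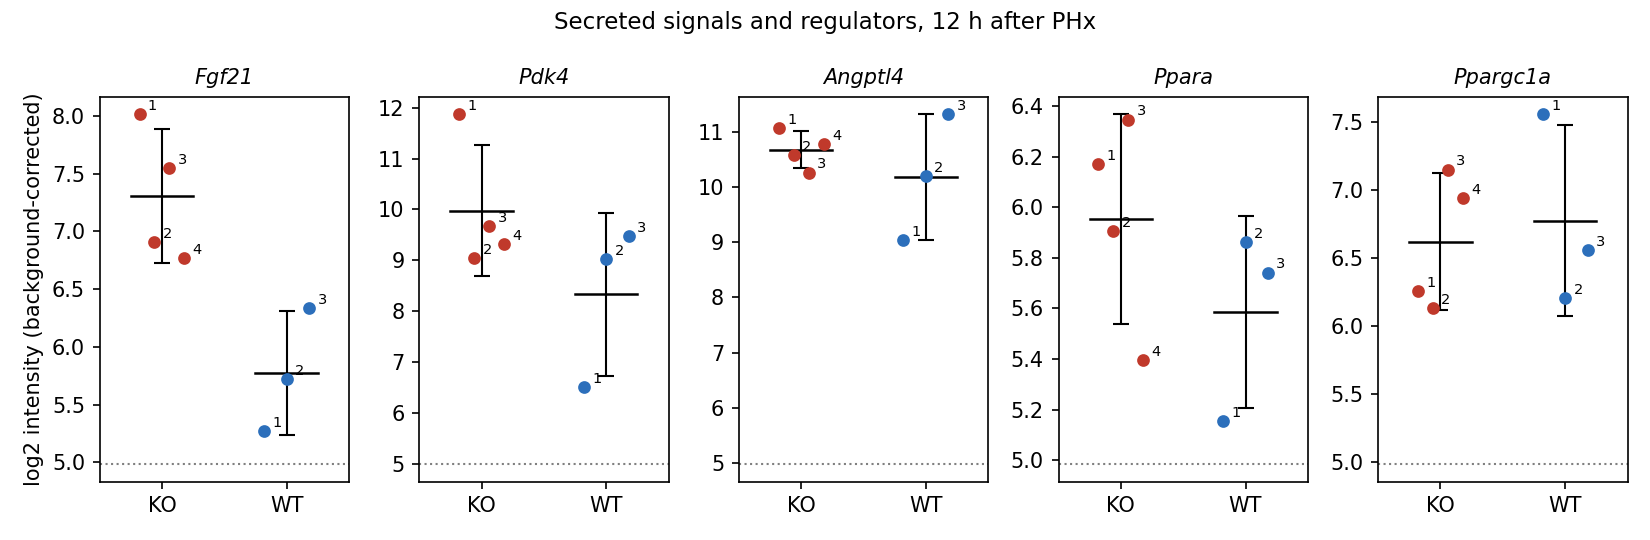
Background-corrected log2 intensity of the 5 secreted signals and regulators in the 4 KO samples (red, left) and the 3 WT samples (blue, right). Numbers are replicates, black lines the mean and SD, and the dotted line the floor of 4.98; scales differ between panels. The groups are apart for Fgf21 and overlap for the other 4 genes, and WT replicate 1 is lowest for all but Ppargc1a.

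Among the 25 enzymes and carriers tested, 20 lay below 0 and 5 above, with a median of -0.18 and a range of -0.79 to 0.31. None passed, and 3 had an unadjusted p under 0.05, all with a lower KO mean (Acot1, Acaa1b and Acads). That was 12% of the 25, against 14.7% of all features in either direction (8.19% higher and 6.46% lower in KO). The median deviation of the 25 from each gene's mean was -0.16, 0.09, -0.18 and 0.10 in KO replicates 1 to 4, and 0.08, 0.07 and 0.19 in WT replicates 1 to 3. KO replicates 2 and 4 thus lay within the WT span, and KO replicates 1 and 3 below it. KO replicate 3 was the lowest of the 7 arrays for 8 enzymes and KO replicate 1 for 6, whereas WT replicate 3 was the highest for 11.

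**Figure D3:**
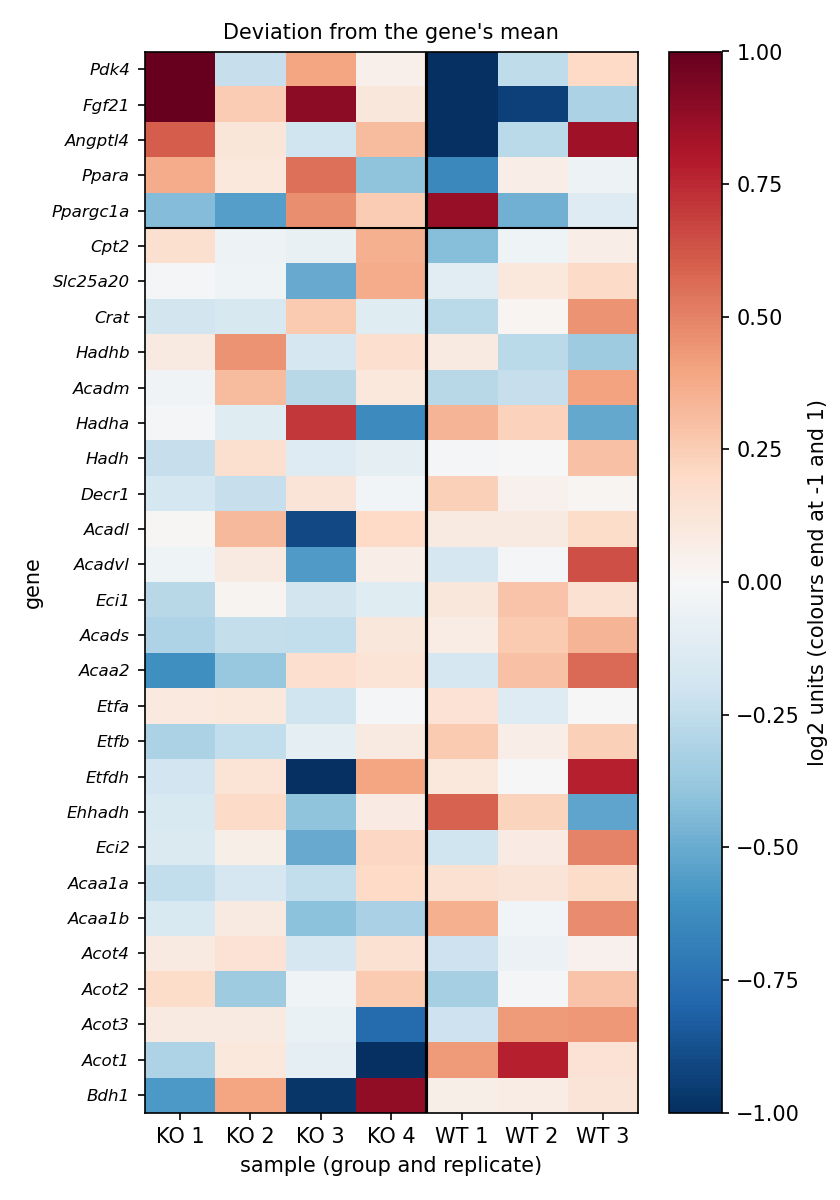
Deviation of each member from its mean over the 7 arrays, in log2 units, by sample (KO left, WT right of the vertical line). The 5 regulators stand above the horizontal line and the 25 enzymes below it, with colours ending at -1 and 1. Regulators and enzymes show different sample patterns, with WT replicate 1 low for Pdk4, Fgf21 and Angptl4 and KO replicate 3 low for several enzymes.

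The carnitine shuttle carries long-chain fatty acids across the mitochondrial membranes. Its entry enzyme Cpt1a, the usual control point of oxidation, could not be tested. Its brighter probe was above the floor on 2 arrays and its other probe on 0. Cpt2, which releases the fatty acid inside, had a log2 intensity of 11.41, 11.20, 11.17 and 11.61 in KO and 10.83, 11.21 and 11.32 in WT. The groups overlapped, and the difference was 0.23 (SE 0.18, adjusted p = 0.61), with 0.08 to 0.23 over its 3 kept probes. At their brightest probes, the carrier gene Slc25a20 (-0.11, SE 0.20) and the carnitine acetyltransferase gene Crat (-0.12, SE 0.20) differed by less than their SE. The dimmer second kept probe of Slc25a20 gave -0.21 (SE 0.16) with groups that did not overlap. That of Crat gave 0.15 (SE 0.17) with overlap.

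Of the 10 mitochondrial beta-oxidation genes, 8 lay below 0 and 2 above (Hadhb and Acadm), and none passed. Acads, the dehydrogenase of short chains, stood at 8.04, 8.11, 8.10 and 8.46 in KO and 8.42, 8.61 and 8.69 in WT. The overlap came from KO replicate 4 alone. Its difference was -0.39 (SE 0.17, adjusted p = 0.30), and at its dimmer second probe, where the groups did not overlap, it was -0.52.

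Eci1, an isomerase needed for unsaturated chains, was 9.91, 10.22, 10.002 and 10.06 in KO against 10.30, 10.47 and 10.34 in WT. All KO values lay below all WT values, by a small margin, with a difference of -0.32 (SE 0.15, adjusted p = 0.36). Acaa2, the thiolase that ends each cycle, differed by -0.40 (SE 0.24, adjusted p = 0.47) and had 4 probes between -0.40 and -0.22.

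The other dehydrogenase genes showed no such separation. Acadvl, for very long chains, differed by -0.27 (SE 0.23) at its brightest probe and by 0.07 at its other probe. Acadl, for long chains, differed by -0.21 (SE 0.26), and its value was 6.97 in KO replicate 3 against 7.88 to 8.19 in the other 6 samples. Acadm, for medium chains, differed by 0.06 (SE 0.21, 95% interval -0.40 to 0.52).

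The trifunctional protein combines several steps of long-chain oxidation and has an alpha subunit (Hadha) and a beta subunit (Hadhb). Hadhb had the highest difference among the enzymes, with 10.62, 10.98, 10.37 and 10.70 in KO and 10.63, 10.26 and 10.18 in WT (0.31, SE 0.19, adjusted p = 0.48). The groups overlapped. Hadha differed by -0.04 (SE 0.30). Hadh, the short-chain hydroxyacyl-CoA dehydrogenase gene, differed by -0.17 (SE 0.16) and Decr1, a reductase for unsaturated chains, by -0.18 (SE 0.16).

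Electrons from the acyl-CoA dehydrogenases pass to the electron transfer flavoprotein (Etfa and Etfb) and from it to its oxidoreductase (Etfdh). Etfb was 11.04, 11.11, 11.25 and 11.44 in KO and 11.61, 11.42 and 11.59 in WT, with overlap at KO replicate 4 and WT replicate 2 (-0.33, SE 0.16, adjusted p = 0.37). Its second probe gave -0.41 with groups that did not overlap. Etfa, its partner subunit, had 12.41, 12.42, 12.11 and 12.30 in KO and 12.45, 12.18 and 12.31 in WT, a difference of -0.0046 (SE 0.16, 95% interval -0.35 to 0.34). Etfdh had 9.20, 9.53, 8.18 and 9.78 in KO and 9.50, 9.39 and 10.17 in WT (-0.52, SE 0.34, adjusted p = 0.52), and it differed by -0.18 without KO replicate 3. Its 3 other kept probes lay between -0.11 and 0.11.

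All 4 members of peroxisomal beta-oxidation lay below 0, and none passed. The peroxisomal thioesterase genes Acot3 and Acot4 are given further below and are not among these 4. Acaa1b, a peroxisomal thiolase, had 12.78, 13.03, 12.53 and 12.61 in KO and 13.29, 12.91 and 13.41 in WT. Only KO replicate 2 lay above a WT sample (WT replicate 2), and the difference was -0.47 (SE 0.18, adjusted p = 0.27). Acaa1a, its close paralog, differed by -0.27 (SE 0.16), with 11.12, 11.20, 11.12 and 11.57 in KO and 11.52, 11.50 and 11.55 in WT. Such paralogs can share signal, and probe sequences were not used here. The bifunctional enzyme gene Ehhadh differed by -0.17 (SE 0.25) and the isomerase gene Eci2 by -0.22 (SE 0.21).

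Acyl-CoA thioesterases release free fatty acids from CoA. They form a cluster on chromosome 12, with Acot1 in the cytosol, Acot2 in mitochondria and Acot3 and Acot4 in peroxisomes. Acot1 had the lowest difference of any member. It stood at 8.49, 8.91, 8.70 and 7.75 in KO and 9.23, 9.58 and 8.94 in WT, so that all KO values lay below all WT values. The difference was -0.79 (SE 0.26, 95% interval -1.36 to -0.22), or 1.72-fold lower in KO, with an adjusted p of 0.20. With array weights, where 921 features passed, it was -0.93 (adjusted p = 0.035). Its second kept probe gave -0.38 with overlapping groups.

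Acot3 had 6.68, 6.67, 6.52 and 5.82 in KO and 6.38, 7.01 and 7.02 in WT (-0.38, SE 0.24). Acot4 differed by 0.13 (SE 0.16), with 6.72 to 7.05 in KO and 6.69 to 6.93 in WT. Acot2 was above the floor on 4 arrays and differed by 0.03 (SE 0.20). The 4 paralogs thus had differences on both sides of 0, and KO replicate 4 was the lowest sample for both Acot1 and Acot3.

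**Figure D4:**
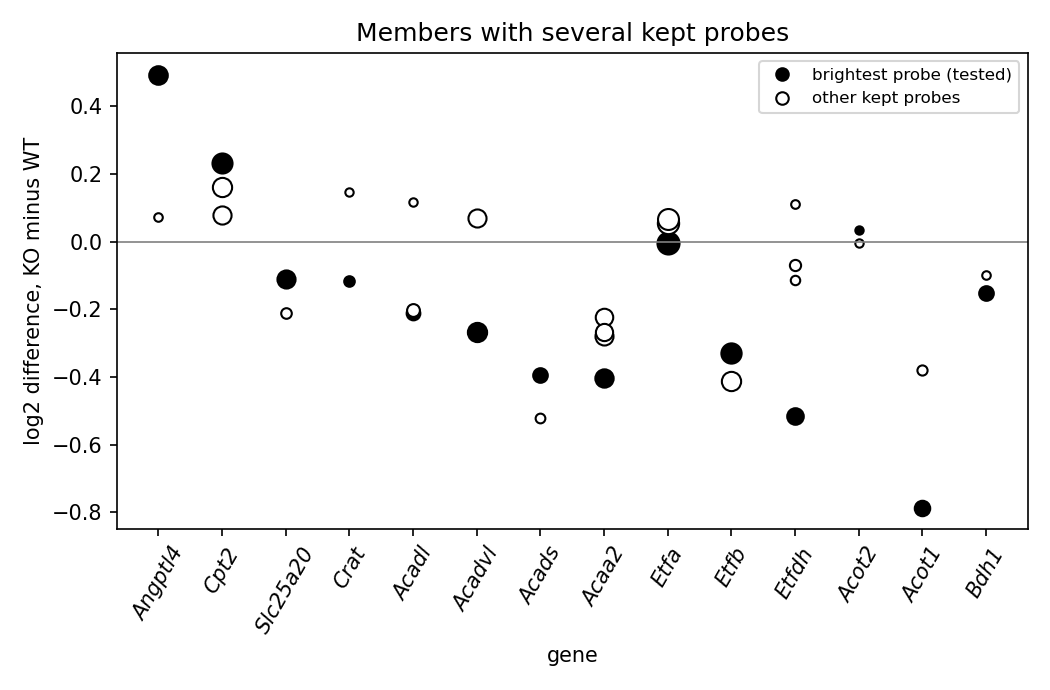
Log2 difference, KO minus WT, of every kept probe of the 14 members with several kept probes; filled dots mark the brightest probe, which was tested, and dot size grows with mean log2 intensity. The kept probes of 8 genes share a sign and those of 6 do not.

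The ketone body enzyme gene Bdh1, which interconverts acetoacetate and hydroxybutyrate, varied widely in KO. It had 7.79, 8.76, 7.39 and 9.25 in KO against 8.42, 8.43 and 8.49 in WT, an SD of 0.86 (n = 4) and 0.04 (n = 3). The means differed by -0.15 (SE 0.36, adjusted p = 0.89). Of the other PPAR-alpha target members, Fabp1, the liver fatty acid binding protein, and the pantetheinase gene Vnn1 each have 1 probe, above the floor on 1 array. The intensity ran from 81.2 to 89.7 in KO and 85.9 to 94.1 in WT for Fabp1, and from 83.2 to 93.7 in KO and 84.8 to 86.9 in WT for Vnn1. Fabp1 is known as one of the most abundant transcripts of hepatocytes, while this probe stayed near the floor in both groups.

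PPAR-alpha binds with its partner RXR-alpha to direct repeats of the sequence AGGTCA with 1 free base between the copies (DR1). The windows before the start that match this element with at most 2 mismatches in 12 fixed letters, on either strand, are shown because it is the element named for this receptor. Matches are in capitals, with up to 20 bases on each side, 5′ to 3′ on the gene's strand (RefSeq, GRCm38.p6). They lie at chr6:71199792-71199844 (plus strand), chr9:55512288-55512340 (minus strand) and chr12:84038346-84038378 (plus strand). The stretch of Acot4 lies before a transcript start inside the annotated gene, whose outermost start is at 84037254, and the region before that outermost start was not searched.
Fabp1, 67 bases before the start, 1 mismatch: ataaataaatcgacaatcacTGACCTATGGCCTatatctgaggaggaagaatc
Etfa, 77 bases before the start, 2 mismatches: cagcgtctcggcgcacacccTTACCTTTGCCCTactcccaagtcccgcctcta
Acot4, 13 bases before this inner start, 2 mismatches: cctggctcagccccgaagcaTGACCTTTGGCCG

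These were 3 of the members' 31 windows (9.68%), against 3.24% of all windows. Fabp1 could not be tested, Etfa differed by -0.0046 and Acot4 by 0.13. Both tested genes had overlapping groups, as did most members, and use of the element in these livers was not tested. Elements outside the 250 bases were not searched.

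Other genes under PPAR-alpha or in peroxisomal oxidation gave a mixed picture. Of 35 listed, 25 were tested, 17 below and 8 above 0, with a median of -0.07 and none past the threshold. G0s2, which encodes an inhibitor of the fat-cleaving lipase ATGL, had 8.98, 8.98, 9.34 and 8.34 in KO against 6.94, 7.59 and 8.09 in WT. All KO values lay above all WT values, and the means differed by 1.37 (SE 0.28, adjusted p = 0.088). Cidec, a lipid droplet protein gene, differed by 1.11 (SE 0.46, adjusted p = 0.29), with 10.86, 10.57, 10.04 and 10.31 in KO and 7.86, 9.80 and 10.33 in WT. The groups overlapped, and WT replicate 1 was lowest for both genes. Pank1, of coenzyme A synthesis, differed by -0.47 (SE 0.17, adjusted p = 0.22) and the omega-hydroxylase gene Cyp4a31 by -0.68 (SE 0.32, adjusted p = 0.36).

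Among 12 tested genes of fatty acid activation and uptake, 9 lay below 0 and 3 above (median -0.12), and none passed. Acsm5, a medium-chain acyl-CoA synthetase, had 6.32, 6.76, 6.33 and 6.42 in KO against 7.12, 7.42 and 7.36 in WT. The groups did not overlap (-0.84, SE 0.17, adjusted p = 0.088). The carnitine transporter gene Slc22a5 had 9.49, 8.89, 9.51 and 9.01 in KO against 7.66, 8.50 and 8.52 in WT, again without overlap but in the other direction (0.996, SE 0.24, adjusted p = 0.12). Slc27a5 (-0.41, SE 0.17) and Acsm1 (-0.53, SE 0.23), both of acyl-CoA formation, had overlapping groups.

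**Figure D5:**
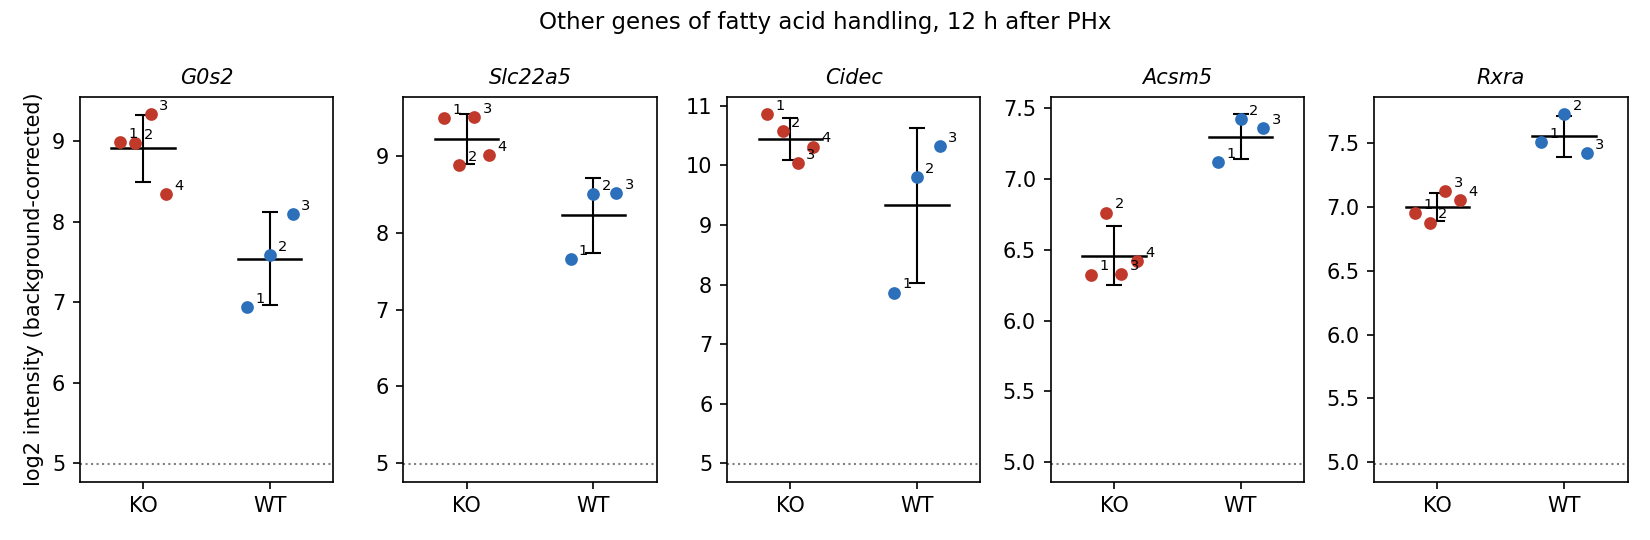
Background-corrected log2 intensity of 5 genes of fatty acid handling outside the module, chosen after their values were seen, in the 4 KO samples (red, left) and the 3 WT samples (blue, right). Numbers are replicates, black lines the mean and SD, the dotted line the floor of 4.98. KO lies above WT for G0s2 and Slc22a5 and below it for Acsm5 and Rxra, and the groups overlap for Cidec.

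The remaining acyl-CoA enzymes of mitochondria had 11 of 15 tested genes below 0 and 4 above (median -0.16), none past the threshold. Acad10, an acyl-CoA dehydrogenase family member, differed by -0.53 (SE 0.16, adjusted p = 0.17) and Gcdh, of lysine breakdown, by -0.32 (SE 0.15, adjusted p = 0.36), both without overlap of the groups. Ivd, of leucine breakdown, differed by -0.49 (SE 0.23), and Acacb, which makes the malonyl-CoA that blocks fatty acid entry, by -0.27 (SE 0.16). Of 8 further ketone body genes, 4 could be tested and none passed. They were the carrier gene Slc16a6 (-0.41, SE 0.21), Bdh2 (-0.53, SE 0.33), Oxct1 (-0.22, SE 0.16) and Acat1 (0.42, SE 0.36).

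FGF21 receptors and factors upstream of Fgf21 were divided, with 8 of 16 tested genes above 0 and 8 below, and none passed. Rxra, the partner receptor of PPAR-alpha, had 6.95, 6.88, 7.13 and 7.05 in KO against 7.51, 7.73 and 7.42 in WT. Its groups did not overlap (-0.55, SE 0.16, adjusted p = 0.15). Lpin1, a phosphatase that also coactivates PPAR-alpha, differed by -0.75 (SE 0.20, adjusted p = 0.14), also without overlap. The nuclear receptor gene Esrra differed by 0.72 (SE 0.27, adjusted p = 0.25) and the receptor gene Fgfr2 by 0.49 (SE 0.25, adjusted p = 0.39), with overlap in both. Of the receptors named after their values were seen, the co-receptor gene Klb differed by -0.29 (SE 0.22), and Fgfr1, Fgfr3 and Fgfr4 were above the floor on at most 2 arrays.

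The stress factor genes Atf4 and Ddit3 and the fasting factor gene Creb3l3, chosen after their values were seen, act upstream of Fgf21. Atf4 had 10.41, 10.31, 9.44 and 9.80 in KO and 8.99, 9.06 and 10.29 in WT (0.54, SE 0.32, adjusted p = 0.48). The groups overlapped through WT replicate 3. Ddit3 differed by 0.13 (SE 0.20) and Creb3l3 by 0.01 (SE 0.24), with Creb3l3 at 10.69 to 10.81 in KO and 10.15 to 11.39 in WT.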

How the data were processed

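Total RNA of 7 liver samples was labelled with biotin and hybridised to Illumina bead arrays, per the labels. The deposited values are linear intensities per probe, normalized between arrays by the authors. The sorted values of the 7 columns coincide within 0.0103 on the log2 scale. The lowest value was 72.6, which does not by itself show whether background had been subtracted. Partek is named in the submitters' processing notes, and its version and settings are not given in the sources used here. The 14 columns of scanner output were not used, because no label ties them to samples.

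From the deposited intensities, background was corrected by normexp (saddle-point fit, offset 16) in limma 3.58.1 with R 4.3.3, and log2 was taken. The floor of 93.4 is the level under which 0.95 of dim probes would lie, if they scatter about the modal intensity of 87.4 as a normal distribution with the spread seen below it. Probes above it on at least 3 arrays were kept (18971). Of the 30 members tested, 29 were above it on all arrays at the probe used, and Acot2 on some. Gene symbols came from the platform annotation, and all 61 member probes had the same symbol in RefSeq of GRCm38.p6. The brightest kept probe stood for a gene. KO and WT were compared by lmFit and eBayes with no covariates, two-sided, with Benjamini-Hochberg adjustment over 13326 features (10473 with a symbol). The procedure was tested on simulated data. The number of arrays limits the precision.

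Whether each sample came from its own animal is not stated, and the p-values therefore refer to the spread among these 7 samples, part of which may be technical. Members, lists and motifs were chosen with earlier results of these data known. Named genes are the 34 members and, of each further list, up to 4 genes of smallest p; others are marked as chosen later. Alternatives changed the correction, normalization, filter, probe, prior, array weights, threshold and replicate block, or left out each sample in turn; a floor at the median intensity of 91.1 was chosen after seeing the data.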

Additional observations from a re-analysis of the deposited data

Results flagged for a closer look

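In each of the 30 members, the 4 KO values were checked for a sample far from the others by Dixon's criterion, for which chance gives about 1 in 20, and 2 genes met it. Crat had a log2 intensity of 6.46 in KO replicate 3, with the next KO value at 6.08, a gap of 0.853 of the whole range. Acads had 8.46 in KO replicate 4, with the next at 8.11, a gap of 0.831 of the range, just past the critical value.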

How the results depend on the processing

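No member passed in 17 of the 19 alternatives. With array weights 2 members passed, Fgf21 (1.75, adjusted p = 0.015) and Acot1 (-0.93, adjusted p = 0.035), among 921 features, and at an adjusted p under 0.1 Fgf21 (1.53) was the 1 member among 81 features. Over all 19 alternatives Fgf21 stayed between 0.919 and 1.81, with adjusted p from 0.015 to 0.39, and from 1.28 to 1.81 with each sample left out. The median of members ran from -0.21 to -0.10 and that of enzyme members from -0.26 to -0.15. Features past the threshold, 9 as reported (1 higher and 8 lower), were 2 to 3 with any sample left out, 4 without background correction and with the mean of kept probes, 19 without the filter, 1 with probes above the floor on all arrays, 2 with trend and robust prior and 3 with the replicate block. Members at an unadjusted p under 0.05, 5 as reported, were 9 with array weights and 3 without KO replicate 1, KO replicate 3 or WT replicate 2. The share of all features at that level was not counted under these alternatives, so the changed counts say nothing about the members in particular. With array weights far more of all features passed the adjusted threshold as well (921 against 9). Of the 30 members, 19 kept their sign under every alternative. The other 11 changed sign somewhere, none of them past the threshold either way, and the cause was not tested. With the mean of kept probes Crat was 0.016 and Etfa 0.039, with array weights Etfa was 0.093, and with the replicate block Hadha was 0.17 and Acot2 -0.048. With 1 sample left out the ranges were -0.44 to 0.24 for Ppargc1a, -0.25 to 0.042 for Slc25a20, -0.28 to 0.074 for Crat, -0.35 to 0.060 for Acadl, -0.061 to 0.28 for Acadm, -0.30 to 0.17 for Hadha, -0.48 to 0.079 for Ehhadh, -0.47 to 0.15 for Bdh1, -0.19 to 0.16 for Acot2, -0.080 to 1.06 for Angptl4 and -0.072 to 0.065 for Etfa. The groups share replicate numbers 1 to 3, and the labels do not say whether the numbers mark pairs. Deviations of same-numbered samples correlated at -0.19, -0.04 and -0.30, and no sample with a number in both groups correlated best with its own number. These values gave no sign of pairing but cannot exclude it with this number of samples. With the replicate block Fgf21 was 1.71 (adjusted p = 0.30) and 0 members passed. KO replicate 4 has no WT sample of its number, so the block took it out of the contrast. Differences with the block are therefore not separate from those without KO replicate 4, where Fgf21 was also 1.71. Slide as a block was not run, since no label ties samples to slides.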

Other observations

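The conversion of pyruvate to acetyl-CoA, which PDK4 restrains, and to oxaloacetate was followed through 9 further genes, of which 7 lay below 0 and none passed. The mitochondrial pyruvate carrier genes Mpc1 and Mpc2 were not analysed here. Pcx, the pyruvate carboxylase gene that feeds gluconeogenesis, had a log2 intensity of 7.58, 7.45, 7.60 and 7.63 in KO against 7.77, 8.08 and 8.50 in WT. The groups did not overlap, and the difference was -0.55 (SE 0.19, adjusted p = 0.20). Pdhb, a subunit of pyruvate dehydrogenase, differed by -0.47 (SE 0.29), its phosphatase gene Pdp2 by -0.28 (SE 0.18) and Dlat, another subunit, by 0.25 (SE 0.19), all with overlapping groups. The other PDK genes differed by -0.29 (Pdk1, SE 0.26), -0.15 (Pdk2, SE 0.20) and 0.07 (Pdk3, SE 0.17) and were chosen after their values were seen.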
